A study of Mus musculus with 36 samples.

Results

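The 34 genes described here encode the folding machinery of the endoplasmic reticulum (ER) and the stress pathway that controls it, and they were taken from a table of read counts for 23059 genes in mouse knee articular cartilage. They were chosen by name: the RefSeq transcripts of these genes gave 42 rows of the table, and each gene was represented by its row with the highest mean count over the 12 RNA libraries. The cartilage came from male C57BL/6J mice that had surgery to destabilize the medial meniscus (DMM), a model of injury-induced osteoarthritis, in the right knee at 12 weeks of age. The control was the unoperated left knee, so it shared the animal, its surgery and its systemic response with the operated limb. Articular cartilage of the tibia and femur was collected 4 or 12 weeks after surgery, and cartilage of 3 knees was pooled for each library, with 3 RNA libraries per limb and week, so p-values below measure the spread between these pools. DNA from other mice of the same design was read after oxidative bisulfite conversion (oxBS), which leaves 5-methylcytosine (5mC) as C and turns other cytosines to T, in 12 further libraries.

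Chondrocytes secrete large amounts of collagen and proteoglycan, and these proteins fold in the ER before they are exported. Lumenal chaperones such as BiP (Hspa5) and the calnexin cycle hold the chains while they fold, and protein disulfide isomerases join their cysteines. When unfolded protein accumulates, the membrane sensors ATF6, IRE1 (Ern1) and PERK (Eif2ak3) start the unfolded protein response: ATF6 and XBP1 raise chaperones and ER-associated degradation (ERAD), and PERK acts through ATF4 and CHOP (Ddit3).

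ATF6 and XBP1 bind the ER stress element (ERSE), which pairs a CCAAT box with a CCACG box. Promoter sequences, 250 bases before to 50 after the gene start on RefSeq's GRCm38.p6 build, were matched by symbol for 29 of the 34 genes, and both strands were searched. ERSE, spelled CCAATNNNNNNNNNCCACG, was found in 9 of the 29 promoters and in 39 of all 32851 promoters of the same length (0.119%). ERSE-II, spelled ATTGGNCCACG, was found in Herpud1 and Dnajb11 and in 12 of all promoters (0.0365%). A further XBP1 and ATF6 motif, TGACGTG, was in Hspa5 only among these genes and in 2.01% of all promoters. A single spelling of an ATF4 motif, TGATGNAAT, was in 0 of the 29 and in 0.965% of all. Other spellings were not searched, so this does not show that ATF4 sites are absent. These matches are letters in a window and say nothing of binding. The 34 genes were chosen by name for their part in ER stress, so a higher ERSE share than among all promoters is no independent result. The 250 bases before the start are shown for the 6 ERSE genes with the highest length-scaled level, 5′ to 3′ on the gene's strand, with the element in capitals. Where the capitals open with CGTGG, the element lies on the opposite strand. The regions are chr2:34771840-34772089 for Hspa5 (plus strand), chr8:84846932-84847181 for Calr (minus), chr10:86705445-86705694 for Hsp90b1 (minus), chr12:17266339-17266588 for Pdia6 (plus), chr11:50325674-50325923 for Canx (minus) and chr15:88819396-88819645 for Creld2 (plus).
Hspa5: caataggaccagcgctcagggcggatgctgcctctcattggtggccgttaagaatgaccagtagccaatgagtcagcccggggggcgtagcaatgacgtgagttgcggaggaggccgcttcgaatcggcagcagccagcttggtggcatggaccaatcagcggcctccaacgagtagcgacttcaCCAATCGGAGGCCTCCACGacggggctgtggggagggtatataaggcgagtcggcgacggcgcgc
Calr: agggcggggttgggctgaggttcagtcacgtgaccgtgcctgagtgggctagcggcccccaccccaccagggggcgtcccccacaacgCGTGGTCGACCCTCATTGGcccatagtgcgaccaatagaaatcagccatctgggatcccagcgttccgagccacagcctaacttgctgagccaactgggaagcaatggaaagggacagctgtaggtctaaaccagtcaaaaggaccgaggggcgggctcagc
Hsp90b1: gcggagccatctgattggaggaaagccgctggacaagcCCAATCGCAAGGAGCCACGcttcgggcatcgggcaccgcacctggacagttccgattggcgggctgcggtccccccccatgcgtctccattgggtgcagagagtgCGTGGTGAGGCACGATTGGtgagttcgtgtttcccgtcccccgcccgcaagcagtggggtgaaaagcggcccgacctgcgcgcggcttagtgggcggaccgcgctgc
Pdia6: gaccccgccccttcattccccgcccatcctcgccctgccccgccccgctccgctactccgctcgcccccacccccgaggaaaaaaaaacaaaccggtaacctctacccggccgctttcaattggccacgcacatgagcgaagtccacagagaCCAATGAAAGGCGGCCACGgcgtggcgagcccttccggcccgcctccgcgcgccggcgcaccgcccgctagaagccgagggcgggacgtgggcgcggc
Canx: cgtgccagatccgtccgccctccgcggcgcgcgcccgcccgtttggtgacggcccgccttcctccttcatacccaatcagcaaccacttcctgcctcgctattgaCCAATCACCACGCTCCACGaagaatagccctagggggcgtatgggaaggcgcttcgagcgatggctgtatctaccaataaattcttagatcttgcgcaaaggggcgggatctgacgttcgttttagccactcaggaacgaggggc
Creld2: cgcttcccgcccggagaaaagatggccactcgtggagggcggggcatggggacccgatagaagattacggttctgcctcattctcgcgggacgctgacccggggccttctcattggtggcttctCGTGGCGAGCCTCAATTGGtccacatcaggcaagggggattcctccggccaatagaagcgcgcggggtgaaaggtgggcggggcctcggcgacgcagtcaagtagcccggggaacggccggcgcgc

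Hsp90b1 held the element on both strands, ending 193 and 88 bases before the start, and in Hspa5 it ended 46 bases before the start. The other 3 genes with an ERSE match are shown by the element alone, all in capitals and read on the strand that carries it, to set their middle bases beside those above.
Dnajc3: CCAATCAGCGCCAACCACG
Derl3: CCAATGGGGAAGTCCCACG
Syvn1: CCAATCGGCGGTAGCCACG

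Total counts ran from 27706547 to 62737656 per RNA library, and a gene among the 34 had between 49 and 78679 counts in a library. Counts of replicate libraries differed beyond sampling noise in every pair. Values below are CPM (counts scaled to a library size of 1e6) on library totals scaled by the trimmed mean of M-values, given as mean ± SD over 3 libraries, and they are divided by transcript length only where genes are compared with each other. Cartilage markers were high: Acan, the main proteoglycan of cartilage, was between 192 and 875 CPM, and Col2a1 was between 356 and 1624 CPM. Other tissue was present in all libraries as well. At 4 weeks all 18 genes of a skeletal muscle list were below the control range in all DMM libraries, with a summed level of 734 to 4385 CPM in DMM and 7219 to 27623 CPM in control, and 12 of 15 chondrocyte genes were lower, with summed levels of 14569 to 21860 CPM and 17277 to 40908 CPM. At 12 weeks muscle genes did not separate the limbs (807 to 14625 CPM in DMM, 133 to 18213 CPM in control), and all 15 chondrocyte genes were higher in DMM by their fitted change, although their sums overlapped (23301 to 37695 CPM against 11519 to 33498 CPM). Fibroblast and synovium genes were higher in DMM, 9 of 10 at 4 weeks (2822 to 4111 CPM against 298 to 1914 CPM) and 8 of 10 at 12 weeks (999 to 2261 CPM against 353 to 608 CPM). In pooled tissue, fewer cells of a type and less RNA per cell cannot be told apart. Plasma and B cell genes, from cells with abundant ER, were between 269 and 519 CPM in sum over all libraries, and 9 of 12 were lower in DMM at 4 weeks and 10 of 11 at 12 weeks. At 12 weeks 12 of 12 neutrophil and marrow genes (median log2 fold change -0.54), 9 of 9 erythroid genes (-0.38, 3 of them called by DESeq2) and 6 of 6 macrophage genes (-0.42) were also lower in DMM by their fitted change, whereas at 4 weeks 6 of 6 macrophage genes were higher (0.73). The 12-week sums in DMM and control were 21840 to 35369 and 26948 to 45627 CPM for neutrophil and marrow genes, 6663 to 11112 and 9297 to 12744 CPM for erythroid genes, and 3398 to 4059 and 4167 to 5697 CPM for macrophage genes, so that only the last did not overlap. The part of these cell types in the results below was not tested, apart from fits with a muscle score. At 4 weeks the mean log2 CPM of the muscle list was 4.81 to 7.00 in DMM and 7.93 to 9.98 in control libraries. The limbs did not overlap in it, so the 4-week fits with this score could not separate muscle level from limb.

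The mRNAs of the main chaperones were among the most abundant in this cartilage. Per kb of transcript and averaged over all 12 libraries, the median of the 34 genes was 33.5 CPM per kb, against 4.78 CPM per kb over the 15572 genes ranked, and 27 of the 34 lay above that median. Hspa5, which encodes BiP, the main lumenal chaperone, came first at 414 CPM per kb, and 73 genes of the table had a level as high or higher, itself included. Calr, encoding the lectin chaperone calreticulin, followed at 272 CPM per kb, and then Hsp90b1, encoding GRP94, at 236 CPM per kb and the disulfide isomerase gene Pdia3 at 235 CPM per kb. Among 9 chaperones and co-chaperones the lowest level was that of Hyou1, a nucleotide exchange factor for BiP, at 4.42 CPM per kb.

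The mRNAs of the 3 sensors were far less abundant than those of the main chaperones, and they were at 4.55 CPM per kb for Eif2ak3, 3.43 for Atf6 and 1.35 for Ern1, which was the lowest of the 34. Xbp1, the transcription factor that IRE1 activates by splicing, was at 153 CPM per kb. The unspliced and spliced Xbp1 transcripts had the same counts in the table, so splicing was not resolved. Atf4 was at 44.3 CPM per kb and Ddit3, which encodes CHOP, at 27.2 CPM per kb, whereas Creb3l1 and Creb3l2, ER-bound factors that support secretion of matrix, were at 14.6 and 6.08 CPM per kb.

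**Figure D1:**
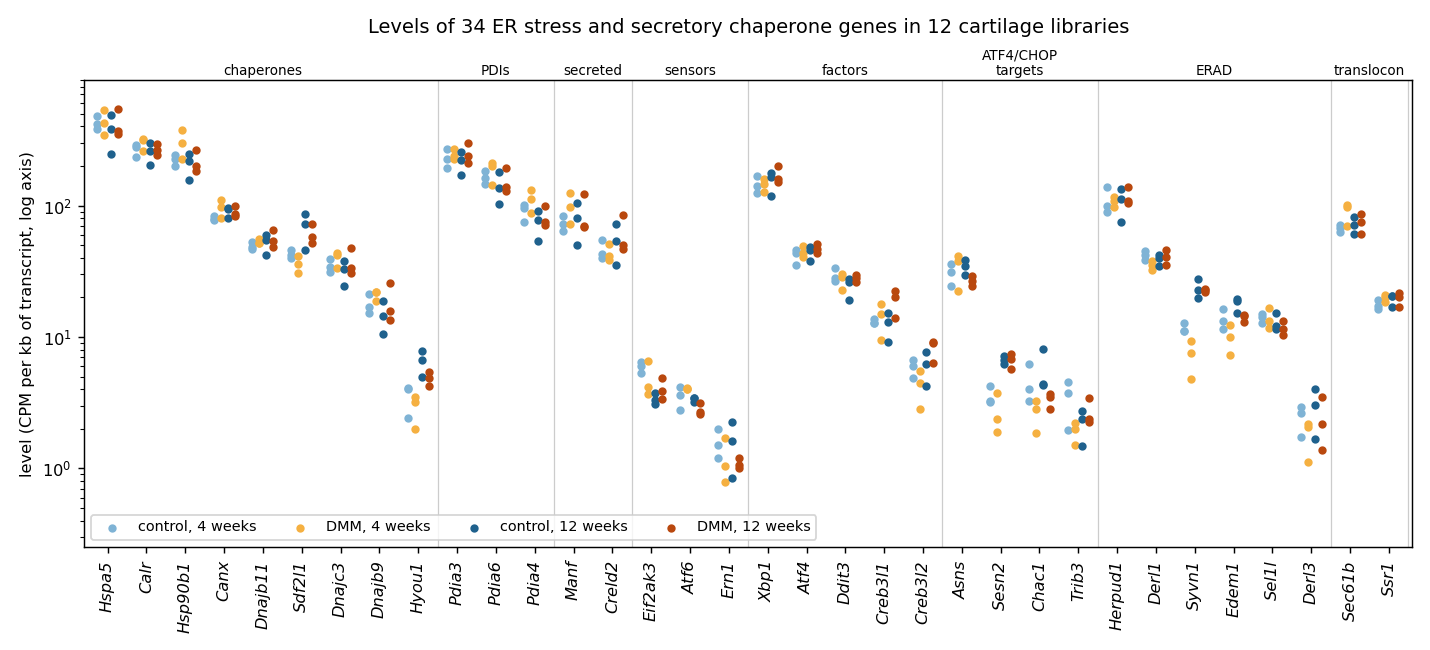
Level of each of the 34 genes in the 12 RNA libraries, as CPM per kb of transcript on a log axis, grouped by role and ordered by mean level within a role, with 1 point per library coloured by limb and week. Hspa5 is the highest and Ern1 the lowest, and the points of both limbs overlap for nearly every gene, while Syvn1 and Sesn2 sit higher at 12 than at 4 weeks.

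The first question was whether ER stress genes differed between operated and control cartilage. With edgeR's quasi-likelihood test and Benjamini-Hochberg adjustment over all transcripts, 0 of the 34 passed an adjusted p of 0.05 at 4 weeks, where 0.0322% of 15543 genes did, and 0 of the 34 passed at 12 weeks, where 0.00648% of 15442 genes did. At an unadjusted p under 0.05 there were 3 of the 34 at 4 weeks, all lower in DMM, against 13.5% of all genes, and 4 of the 34 at 12 weeks, 1 of them higher, against 15.9% of all genes. DESeq2 called 0 of the 34 at either week, where it called 2.68% and 3.05% of the genes it tested. Thus the shares among the 34 were at or below those of all genes. Their median log2 fold change was 0.01 at 4 weeks and 0.08 at 12 weeks, against -0.02 and 0.02 over all tested genes, and 17 and 23 of the 34 had a positive value. The 95% intervals of the log2 fold changes were 0.76 to 1.62 wide at 4 weeks and 0.60 to 1.89 wide at 12 weeks. These intervals are not adjusted for the number of genes tested. They exclude 0 for the 3 and 4 genes with an unadjusted p under 0.05, of which 0 passed after adjustment.

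**Figure D2:**
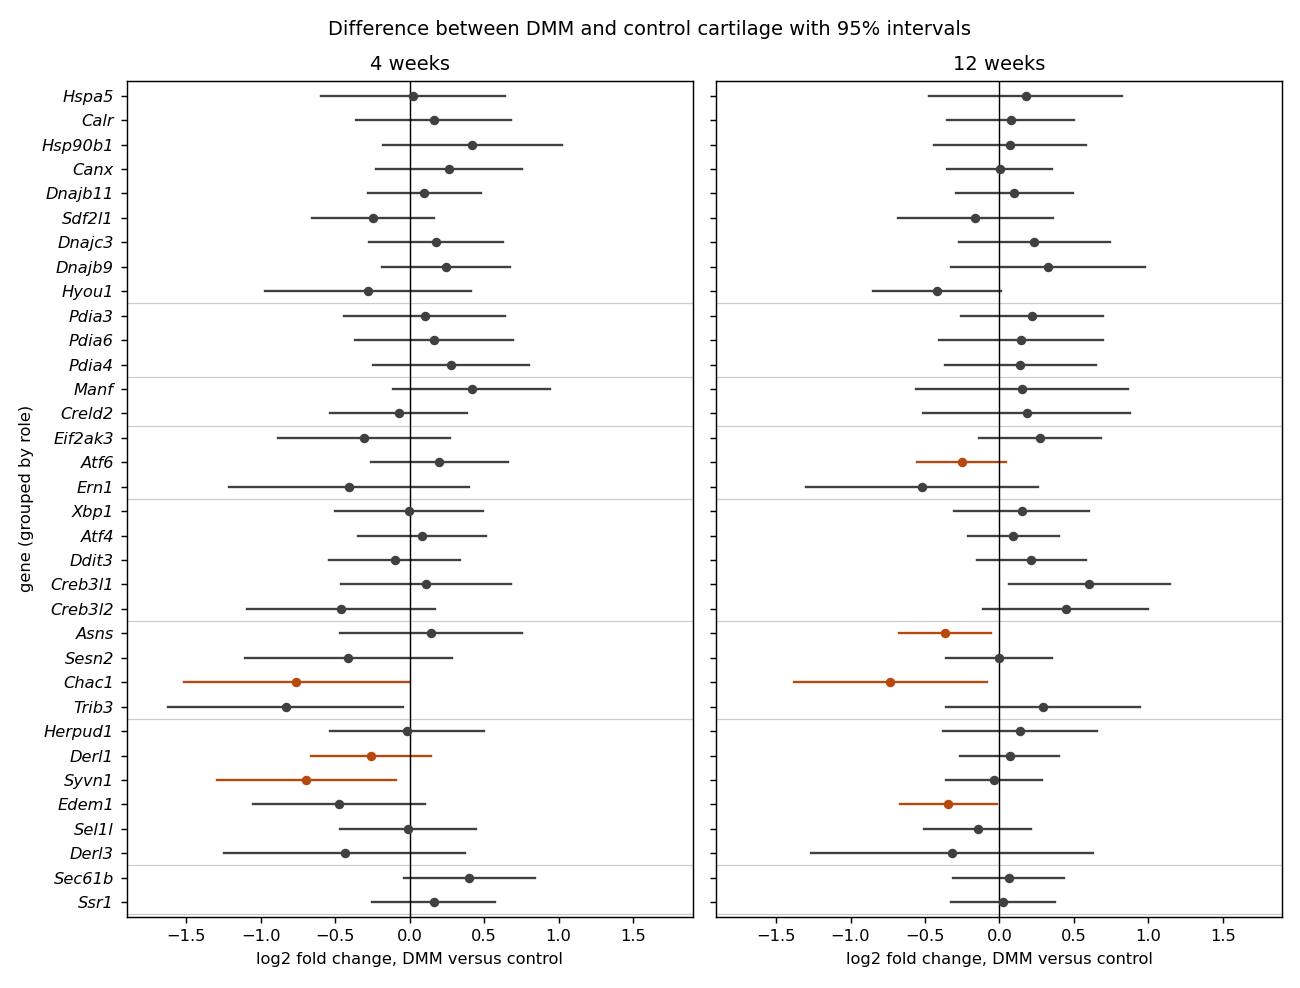
Log2 fold change of each gene between DMM and control cartilage at 4 weeks (left) and 12 weeks (right) from edgeR, with 95% intervals, 3 libraries per group. Genes drawn in orange had no overlap between the 3 DMM and the 3 control libraries (Chac1, Derl1 and Syvn1 at 4 weeks, Atf6, Asns, Chac1 and Edem1 at 12 weeks), and all of these were lower in DMM.

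The lumenal chaperones overlapped between the limbs at both weeks. Hspa5 was at 1261, 1090 and 1008 CPM in the 4-week control libraries and at 902, 1405 and 1114 CPM in the DMM libraries. At 12 weeks it was at 1005, 1271 and 646 CPM in control and at 920, 1409 and 959 CPM in DMM. The spread within each limb was thus wider than the difference between the means, 1119 ± 129 against 1140 ± 252 CPM at 4 weeks and 974 ± 314 against 1096 ± 272 CPM at 12 weeks (SD, n = 3). Hsp90b1 was at 615 ± 56.8 CPM in control and 827 ± 206 CPM in DMM at 4 weeks, and at 570 ± 124 and 596 ± 122 CPM at 12 weeks. Calr was at 516 ± 53.9 and 580 ± 64.1 CPM at 4 weeks and at 495 ± 93.9 and 520 ± 48.7 CPM at 12 weeks, and its membrane-bound relative Canx, calnexin, at 343 ± 11.4 and 414 ± 65 CPM and then at 385 ± 36.7 and 383 ± 35.7 CPM. Of the 9 chaperones and co-chaperones, 7 had a positive log2 fold change at each week, with medians of 0.16 and 0.08, and 0 separated the limbs. At 4 weeks this direction depended on the fit, since 4 of the 9 were positive with an offset for GC content (median -0.04) and 5 with a skeletal muscle score as a term (median 0.00238). At 12 weeks 6 of the 9 were positive in DESeq2, with Canx near 0.

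The co-chaperones deliver clients to BiP or set its cycle. Dnajb9, a J-domain protein that also restrains IRE1, was at 33.1 ± 5.82 CPM in control and 39.3 ± 3.58 CPM in DMM at 4 weeks, and at 27.3 ± 7.83 and 34.2 ± 12.3 CPM at 12 weeks. Dnajb11 was between 84.7 and 131 CPM in all 12 libraries, and Dnajc3, which is also known as an inhibitor of PERK, was between 126 and 245 CPM. Sdf2l1, a partner of ER J-domain proteins, was at 47.3 ± 3.53 and 40.1 ± 5.82 CPM at 4 weeks and at 75.4 ± 22.4 and 67.2 ± 11.8 CPM at 12 weeks. Hyou1 was at 15.5 ± 4.13 and 12.8 ± 3.48 CPM at 4 weeks and at 28.7 ± 6.25 and 21.4 ± 2.5 CPM at 12 weeks. These 2 genes were the ones of the 9 with a negative log2 fold change at both weeks, although with the GC offset Sdf2l1 was at 0.10 at 4 weeks.

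The disulfide isomerases and the secreted stress proteins gave the same picture of wide overlap. Pdia3, which works with calnexin and calreticulin, was at 602 ± 101 CPM in control and 647 ± 55.1 CPM in DMM at 4 weeks, and at 571 ± 109 and 662 ± 120 CPM at 12 weeks. Pdia4 was at 225 ± 35.4 and 273 ± 53.4 CPM and then at 184 ± 47.8 and 202 ± 37.2 CPM, and Pdia6 at 351 ± 38.6 and 394 ± 77.8 CPM and then at 299 ± 81.5 and 330 ± 73.7 CPM. All 3 isomerases had positive log2 fold changes at both weeks, with medians of 0.16 and 0.15, although 2 of 3 did at 4 weeks with the GC offset. Manf and Creld2 encode proteins that cells secrete under ER stress. Manf was at 63.4 ± 8.05 and 85.1 ± 22.2 CPM at 4 weeks and at 67.8 ± 23.5 and 75.2 ± 26.2 CPM at 12 weeks, and Creld2 at 62.5 ± 10.9 and 59.5 ± 9.04 CPM and then at 73.1 ± 25.1 and 82.7 ± 28.2 CPM.

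Among the sensors, Atf6 (chr1:170704457-170867771, minus strand) separated the limbs at 12 weeks. It was at 25.6, 24.0 and 25.8 CPM in the control libraries and at 19.5, 23.6 and 19.9 CPM in the DMM libraries, so that every DMM library was lower. The log2 fold change was -0.25 ± 0.13 (SE), with an adjusted p of 0.353 in edgeR's quasi-likelihood test. At 4 weeks the limbs overlapped, at 26.2 ± 5.09 CPM in control and 30.2 ± 0.241 CPM in DMM. Eif2ak3 was at 26.8 ± 2.45 and 21.7 ± 6.85 CPM at 4 weeks and at 15.2 ± 1.38 and 18.3 ± 3.42 CPM at 12 weeks, and Ern1 was at 6.21 ± 1.57 and 4.68 ± 1.91 CPM and then at 6.27 ± 2.82 and 4.34 ± 0.370 CPM. At 12 weeks all DMM libraries lay below all controls in 8.43% of all genes and in 4 of the 34 (11.8%), and they lay above all controls in 9.91% of all genes and in 0 of the 34.

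Of the transcription factors, Creb3l1 (chr2:91982328-92024170, minus strand), which drives collagen secretion in bone-forming cells, had the largest positive log2 fold change of the 34 at 12 weeks. Its level was 29.5, 34.8 and 20.9 CPM in control and 50.4, 46.1 and 31.9 CPM in DMM. A DMM library lay below the highest control library, and the other DMM libraries lay above all controls. The log2 fold change was 0.60 ± 0.23 (SE) with an adjusted p of 0.279 in edgeR and 0.172 in DESeq2. Over the alternatives tried its adjusted p ran from 0.00355, in DESeq2 with the replicate number as a block, to 0.713. That blocked fit called 1836 of 19171 genes. At 4 weeks Creb3l1 was at 29.7 ± 1.11 CPM in control and 32.0 ± 9.60 CPM in DMM. At 12 weeks 7 of 10 osteoblast and osteocyte genes also had a positive fitted change, with sums of 9255 to 11160 CPM in DMM and 5943 to 11408 CPM in control, and their part in this difference was not tested.

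The other factors overlapped between the limbs. Creb3l2 was at 19.4 ± 2.95 and 14.1 ± 4.41 CPM at 4 weeks and at 20.1 ± 5.75 and 27.1 ± 5.27 CPM at 12 weeks. Xbp1 was at 321 ± 46.7 and 320 ± 37.4 CPM and then at 341 ± 68.1 and 376 ± 56.0 CPM. Atf4 was at 72.2 ± 9.64 and 76.8 ± 7.95 CPM and then at 76.3 ± 9.70 and 81.1 ± 5.96 CPM, and Ddit3 at 25.4 ± 3.08 and 23.8 ± 3.51 CPM and then at 21.1 ± 3.83 and 24.4 ± 1.46 CPM. At 12 weeks all 5 factors had a positive log2 fold change, with a median of 0.22, and 0 of them separated the limbs.

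The targets of ATF4 and CHOP differed among themselves, with 1 of 4 having a positive log2 fold change at each week, or 2 of 4 at 4 weeks with the muscle score. Chac1 (chr2:119351242-119354326, plus strand), which encodes an enzyme that degrades glutathione, was at 9.70, 6.34 and 5.14 CPM in control and at 5.10, 4.46 and 2.90 CPM in DMM at 4 weeks. At 12 weeks it was at 6.80, 6.88 and 12.7 CPM in control and at 5.5, 4.48 and 5.80 CPM in DMM. Every DMM library lay below all controls at each week, although at 4 weeks the nearest libraries differed by little, at 5.10 and 5.14 CPM. The log2 fold change was -0.76 ± 0.33 (SE) at 4 weeks and -0.73 ± 0.28 (SE) at 12 weeks, with adjusted p of 0.365 and 0.278 in edgeR and of 0.254 and 0.151 in DESeq2. At 4 weeks 10.3% of all genes were lower and 10.8% were higher in every DMM library, against 3 and 0 of the 34. Single libraries weighed on both values: without control library 1 the 4-week value was -0.47, and without control library 3 the 12-week value was -0.38. When the level of skeletal muscle genes, which itself separated the limbs at 4 weeks, entered the fit, the 4-week value of Chac1 was 0.33.

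Trib3, a pseudokinase that ATF4 and CHOP induce, was at 7.66, 9.31 and 4.04 CPM in control and at 4.57, 4.10 and 3.08 CPM in DMM at 4 weeks. The third control library lay among the DMM libraries, and the log2 fold change was -0.83 ± 0.34 (SE, adjusted p = 0.357 in edgeR), or -0.21 with the muscle score in the fit. At 12 weeks Trib3 was at 4.52 ± 1.35 and 5.54 ± 1.34 CPM. Asns, asparagine synthetase, was at 75.9, 68.1 and 57.9 CPM in 12-week control and at 47.7, 52.0 and 56.5 CPM in DMM libraries, which were all lower. Its log2 fold change was -0.36 ± 0.13 (SE, adjusted p = 0.274 in edgeR), and at 4 weeks the limbs overlapped at 59.5 ± 11.3 and 66.1 ± 19.6 CPM. Sesn2, a stress-induced inhibitor of mTORC1 signalling, was at 9.49 ± 1.59 and 7.13 ± 2.59 CPM at 4 weeks and at 17.8 ± 1.20 and 17.6 ± 2.35 CPM at 12 weeks.

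ERAD genes, whose products pull misfolded chains out of the ER for degradation, all had negative log2 fold changes at 4 weeks, with a median of -0.35, but 3 of 6 were positive with the muscle score (median 0.16) and 1 of 6 with the GC offset (median -0.19). At 12 weeks 4 of 6 were negative. Syvn1 (chr19:6046576-6053718, plus strand), the ubiquitin ligase HRD1, was at 38.8, 38.2 and 44.0 CPM in control and at 32.3, 26.1 and 16.5 CPM in DMM at 4 weeks, with no overlap. Its log2 fold change was -0.69 ± 0.26 (SE, adjusted p = 0.337 in edgeR), with -0.21 when the muscle score entered the fit and -0.46 without DMM library 3, and at 12 weeks the limbs overlapped at 80.7 ± 13.7 and 78.2 ± 1.85 CPM. Edem1, a mannosidase-like factor that marks glycoproteins for disposal, was at 115, 88.6 and 110 CPM in 12-week control and at 85.8, 84.6 and 75.7 CPM in DMM libraries. All DMM libraries were lower, with a log2 fold change of -0.34 ± 0.14 (SE, adjusted p = 0.292 in edgeR), and at 4 weeks Edem1 was at 79.9 ± 14.2 and 57.7 ± 14.9 CPM. Derl1, a channel component, was at 142, 133 and 121 CPM in control and at 112, 118 and 101 CPM in DMM at 4 weeks, again without overlap (log2 fold change -0.26 ± 0.18 SE, adjusted p = 0.481 in edgeR, and -0.01 with the muscle score), and at 122 ± 11.7 and 128 ± 17.5 CPM at 12 weeks.

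The other ERAD genes were Herpud1, which organizes the HRD1 complex, Sel1l, its adaptor, and Derl3. Herpud1 was at 211 ± 50.3 and 209 ± 18.6 CPM at 4 weeks and at 208 ± 57.4 and 228 ± 36.5 CPM at 12 weeks. Sel1l was at 88.0 ± 7.32 and 87.4 ± 16 CPM and then at 81.8 ± 13 and 73.6 ± 9.39 CPM, and Derl3 at 3.25 ± 0.844 and 2.39 ± 0.779 CPM and then at 3.89 ± 1.57 and 3.14 ± 1.43 CPM. The translocon genes, which bring chains into the ER, overlapped too: Sec61b was at 37.2 ± 2.12 and 49.4 ± 9.43 CPM and then at 39.2 ± 5.76 and 40.8 ± 6.80 CPM, and Ssr1 at 165 ± 13 and 185 ± 10.4 CPM and then at 180 ± 19.5 and 182 ± 22.5 CPM.

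The values at 4 weeks moved with the base composition of the transcripts. Over all tested genes, the median log2 fold change between DMM and control ran from 0.31 in the 20% of genes with the lowest GC content to -0.40 in the 20% with the highest. The 34 genes did likewise, with a median of 0.24 over the 5 members of the lowest such class and of -0.44 over the 7 of the highest. Trib3 (58.2% GC), Chac1 (57.7%) and Syvn1 (57.4%) all belong to the highest class, and the chaperone genes Hsp90b1 (43.1%) and Canx (42.1%) to the lowest. DMM libraries 2 and 3 of week 4 carried this slope: the median log2 CPM of the GC-richest class minus that of the GC-poorest was -1.13 in replicate 2 and -1.49 in replicate 3, against -0.55 to 0.16 in the other libraries. With an offset for GC content in each library, an alternative chosen after seeing the data, the 4-week log2 fold change of Trib3 was -0.47, that of Chac1 -0.42 and that of Syvn1 -0.39, and 0 of these 3 kept an unadjusted p under 0.05. In that fit 2 other genes of the 34 had an unadjusted p under 0.05, both higher in DMM: Sec61b at 0.49 ± 0.19 and Creb3l1 at 0.41 ± 0.17 (log2, SE, adjusted p = 0.468 and 0.494 in edgeR). At 12 weeks the medians of the 5 classes ran from -0.03 to 0.11, and with the offset Chac1 was at -0.81, Asns at -0.35 and Edem1 at -0.33.

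**Figure D3:**
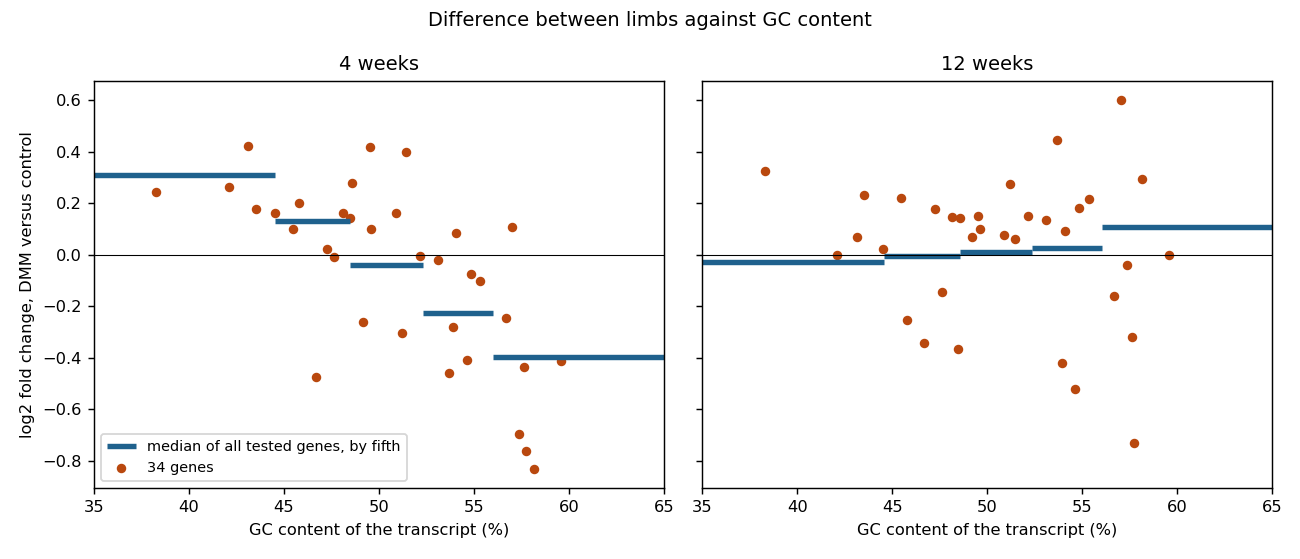
Log2 fold change between DMM and control at 4 weeks (left) and 12 weeks (right) against the GC content of the transcript, with 1 point for each of the 34 genes and a bar for the median of all tested genes in each of 5 equal classes of GC content. At 4 weeks the points follow the bars down from 0.31 to -0.40, and at 12 weeks the bars stay between -0.03 and 0.11.

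Whether the difference between limbs changed with time was tested as an interaction of limb and week over all 12 libraries. edgeR called 0 of the 34 and 0 of 15946 genes (0%), with 2 of the 34 and 1894 genes (11.9%) at an unadjusted p under 0.05, and DESeq2 called 0 of the 34 and 13 of 19903 genes (0.0653%). The 2 genes were Trib3, with a difference of 1.12 ± 0.47 (log2, SE, adjusted p = 0.405 in edgeR), and Creb3l2, with 0.90 ± 0.38 (log2, SE, adjusted p = 0.405 in edgeR). Over the alternatives tried the adjusted p of Creb3l2 ran from 0.0363, in DESeq2 with the replicate number as a block, to 0.724. That blocked fit called 602 of 19903 genes. Trib3 and Creb3l2 were both lower in DMM at 4 weeks by their means and higher at 12 weeks. With the GC offset neither kept an unadjusted p under 0.05, at 0.66 and 0.72.

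Levels also differed between weeks in the same limb, where time after surgery, age and any batch by week cannot be told apart. The fitted values of cell type lists differed between the weeks too. In DMM cartilage 9 of 10 fibroblast and synovium genes were lower at 12 weeks (median log2 fold change -1.46), as were 6 of 6 macrophage genes (-1.31) and 6 of 7 adipocyte genes (-1.37), while 11 of 12 neutrophil and marrow genes (0.53), 12 of 15 chondrocyte genes (0.56) and 18 of 18 skeletal muscle genes (1.11) were higher. In control cartilage 9 of 10 fibroblast and synovium genes (-1.51), 7 of 7 adipocyte genes (-1.33), 12 of 15 chondrocyte genes (-0.61) and 18 of 18 skeletal muscle genes (-1.30) were lower, and 12 of 12 neutrophil and marrow genes (1.03) were higher. Their part in the values of the 34 genes was not tested. In DMM cartilage 5 of the 34 passed the test between 4 and 12 weeks (14.7%), against 23.3% of 15381 genes. DESeq2 called 6 of the 34, these 5 and Hyou1, against 23.3% of 19310 genes, and 8 of the 34 and 38.6% of all genes had an unadjusted p under 0.05 in edgeR. Syvn1 was at 25.0 ± 7.95 CPM at 4 weeks and 78.2 ± 1.85 CPM at 12 weeks, a log2 fold change of 1.6 ± 0.24 (SE, adjusted p = 0.00450 in edgeR). Sesn2 was at 10.02, 6.36 and 5.0 CPM at 4 weeks and at 19.7, 15.1 and 18.1 CPM at 12 weeks, so that every later library was higher. Sesn2 rose by 1.27 ± 0.27, Creb3l2 by 0.90 ± 0.26 and Sdf2l1 by 0.70 ± 0.19 on the log2 scale, with adjusted p of 0.0117, 0.0308 and 0.0266 in edgeR. Atf6, the only one of the 5 that was lower at 12 weeks, fell by 0.57 ± 0.16 on the log2 scale (adjusted p = 0.0300 in edgeR). Hyou1 (0.70 ± 0.23), Edem1 (0.46 ± 0.21) and Trib3 (0.45 ± 0.26) did not overlap between the weeks but missed the threshold, with adjusted p of 0.0519, 0.127 and 0.227 in edgeR, as did Pdia4 at -0.48 ± 0.21 with overlapping libraries (adjusted p = 0.125 in edgeR). With the GC offset Hyou1, Edem1 and Trib3 were at 0.45, 0.69 and -0.11, so that the sign of Trib3 turned. Single libraries weighed on them as well: without library 3 of week 4 Edem1 was at 0.28 and Trib3 at 0.30, without library 2 of week 12 Trib3 was at 0.25, and without library 1 of week 4 Edem1 was at 0.70 and passed (adjusted p = 0.0174 in edgeR). Hyou1 passed in DESeq2 (adjusted p = 0.0197), and in edgeR with median-of-ratios factors (0.0487), with no filter on low counts (0.0376) and with at least 10 counts in every library (0.0497), while Atf6 missed the threshold with no filter (adjusted p = 0.0510 in edgeR). With the GC offset 2 of these 5 calls were left, those of Syvn1 (1.10, adjusted p = 0.00835 in edgeR) and Sesn2 (0.68, adjusted p = 0.0462 in edgeR). Of the other 3, Creb3l2 was at 0.68 (adjusted p = 0.0749 in edgeR), Atf6 at -0.28 and Sdf2l1 at 0.19 in that fit. Without DMM library 2 or 3 of week 4, or 2 of week 12, the calls were those same 2 genes. Over all genes these fits called 1435 of 15458, 1482 of 15737 and 1977 of 15760. Without library 1 of week 4, 8 of the 34 passed, against 5334 of 15747 genes. Without library 1 or 3 of week 12, 3 of the 34 passed, against 2179 of 15435 and 1455 of 15462 genes. No overlap between weeks was seen for 7 of the 34 that were higher at 12 weeks and for 1 that was lower, against 23.3% and 19.5% of all genes.

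In control cartilage edgeR called 0 of the 34 and 0 of 15615 genes (0%) between the weeks, with 5 of the 34 and 3250 genes (20.8%) at an unadjusted p under 0.05, while DESeq2 called 4 of the 34 (11.8%) and 1905 of 19400 genes (9.82%). Syvn1 was at 40.4 ± 3.17 CPM at 4 weeks and 80.7 ± 13.7 CPM at 12 weeks, a log2 fold change of 0.98 ± 0.17 (SE, adjusted p = 0.0713 in edgeR and 3.86e-05 in DESeq2). Sesn2 had a log2 fold change of 0.89 ± 0.17 and Hyou1 of 0.87 ± 0.27, with adjusted p of 0.0769 and 0.149 in edgeR and of 0.000457 and 0.0410 in DESeq2. Eif2ak3 had a log2 fold change of -0.83 ± 0.15 (SE, adjusted p = 0.0713 in edgeR and 3.86e-05 in DESeq2). Sdf2l1 had a log2 fold change of 0.65 ± 0.24 (SE, adjusted p = 0.185 in edgeR) with overlapping libraries. Syvn1, Sesn2, Hyou1 and Eif2ak3 did not overlap between the weeks, 3 higher and 1 lower at 12 weeks, against 16% and 11% of all genes. Without library 3 of week 4, edgeR called Syvn1, Sesn2 and Eif2ak3, 3 of the 34, against 2829 of 15851 genes. The comparisons of weeks and of limbs share libraries, so Syvn1 and Sesn2 are given here limb by limb without a joint test.

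Most chaperone genes varied together between libraries of the same limb and week. As a measure of this, the log2 CPM of each gene was set against its group mean, and the deviations over the 12 libraries were correlated with those of Hspa5. A correlation above 0.8 was found for 13 of the other 33 genes (39.4%) and for 1.81% of 15945 tested genes, with medians of 0.77 and 0.04. The highest values were those of Dnajc3 (0.95), Pdia6 (0.94), Creld2 (0.92) and Manf (0.92). All 3 disulfide isomerases, both secreted proteins and 5 of 8 other chaperones and co-chaperones lay above 0.8, as did the factors Xbp1 (0.86) and Ddit3 (0.81) and the ERAD gene Herpud1 (0.86). The 3 sensors and 4 ATF4 and CHOP targets all lay below 0.8, with Trib3 at 0.55 and Asns at 0.35: Ern1 was at -0.51, Sesn2 at -0.47, Chac1 at -0.43 and Eif2ak3 at -0.42. The correlation is a description over 12 points that share library depth and tissue makeup. Genes with an ERSE or ERSE-II match had a median of 0.83 (10 genes besides Hspa5), and the 18 genes with a promoter but no match had a median of 0.58, with overlapping ranges of 0.17 to 0.95 and -0.51 to 0.91. The first group also had the higher median level, 88.9 against 18.5 CPM per kb.

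**Figure D4:**
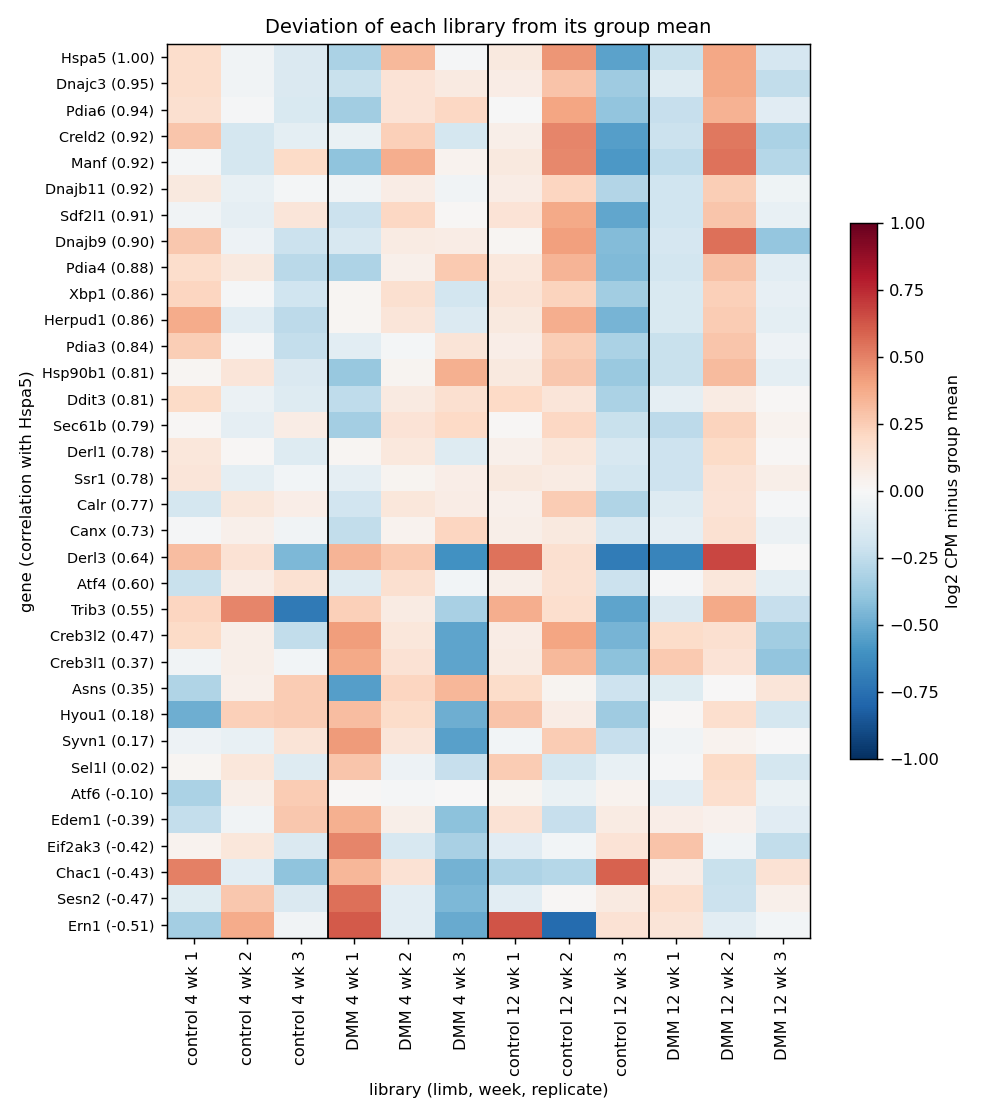
Log2 CPM of each of the 34 genes minus its group mean in the 12 RNA libraries, in red where a library lies above its group and in blue where it lies below, with genes ordered by their correlation with Hspa5 (in brackets). In the upper rows control replicate 3 of week 12 is blue and control replicate 2 and DMM replicate 2 of week 12 are red, and the lowest rows (Ern1, Sesn2, Chac1) do not share this pattern.

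This pattern was carried by libraries of week 12. Control replicates 1 and 2 lay above their group for 29 and 28 of the 34 genes, with median deviations of 0.08 and 0.21. Control replicate 3 lay below its group for 28 of the 34, with a median of -0.31 (-0.02 over all genes). DMM replicate 2 lay above its group for 30 of the 34, with a median of 0.19 (0.01 over all genes). Manf, for instance, was at 43.5 CPM in control replicate 3, against 69.5 and 90.5 CPM in the other controls, and at 105 CPM in DMM replicate 2, against 60.8 and 59.4 CPM in the others. Over the 6 libraries of week 4 alone, 3 of 33 genes lay above 0.8, with a median of 0.51, against 1.64% of all genes and a median of 0.04. Over the 6 libraries of week 12, 23 of 33 did, against 14.6% of all genes. Without control replicate 3 and DMM replicate 2 of week 12, 2 of 33 lay above 0.8, with a median of 0.47, against 0.533% of all genes and a median of 0.04. The medians with and without an ERSE or ERSE-II match were then 0.59 and 0.24. Lists of other ER genes, described below, shared the week 12 pattern. Mean log2 CPM of translocon and ER export genes was 6.05 in control replicate 3, against 6.25 and 6.43. It was 6.58 in DMM replicate 2, against 6.29 and 6.31. Other folding enzymes and other ERAD genes did likewise. Other ATF4 targets and regulators were lowest of the controls in that control library, but not highest in that DMM library. The chondrocyte list was lowest of the controls in control replicate 3 of week 12, with a mean log2 CPM of 6.03 against 6.66 and 7.64. It was highest of the DMM libraries in DMM replicate 2, at 7.62, but close to replicate 1 at 7.48, with 7.01 in replicate 3. The osteoblast and osteocyte list did likewise, at 7.29 in that control library against 7.92 and 7.89, and at 8.13 in that DMM library against 8.02 and 7.87. The muscle list was highest in that control library, at 8.38 against 2.07 and 6.40, and in DMM replicate 1 at 9.00 against 5.08 and 5.04, where 26 of the 34 genes lay below their group. DMM replicate 3, with a low muscle level of 5.04, also had 26 of the 34 below its group. Deviations within a group cancel out, so a library that stands apart pushes the others to the opposite side. The counts for control replicates 1 and 2 and DMM replicates 1 and 3 are therefore not separate observations, and they cannot be read against muscle level. The part of the tissue makeup in this covariation was not tested. The median log2 fold change of the 34 genes at 12 weeks, 0.08 with all libraries, was -0.06 without that control library and -0.04 without that DMM library, so its sign rested on either.

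The promoters of these genes were almost free of 5mC. Reads of cytosines in CpG sites from 1000 bp before to 500 bp after the gene start were summed where each of the 6 oxBS libraries of a week had at least 10 reads, and 31 of the 34 promoters had at least 5 such cytosines at each week. Calr, Sec61b and Sel1l did not. The median share of reads kept as C over these promoters was 0.69% at 4 weeks and 0.35% at 12 weeks, against 0.76% and 0.42% over all measured promoters. Mitochondrial cytosines, taken here as the level left by incomplete conversion, were at 0.53% to 0.74% per library at 4 weeks and at 0.28% to 0.35% at 12 weeks, so most of the 31 promoters sat at that floor. The lower level at 12 weeks moved with the floor and cannot be told apart from it. In 30 of 31 promoters the mean was under 5% at both weeks, as it was in most measured promoters (12091 of 13534 at 4 weeks and 11941 of 13375 at 12 weeks).

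**Figure D5:**
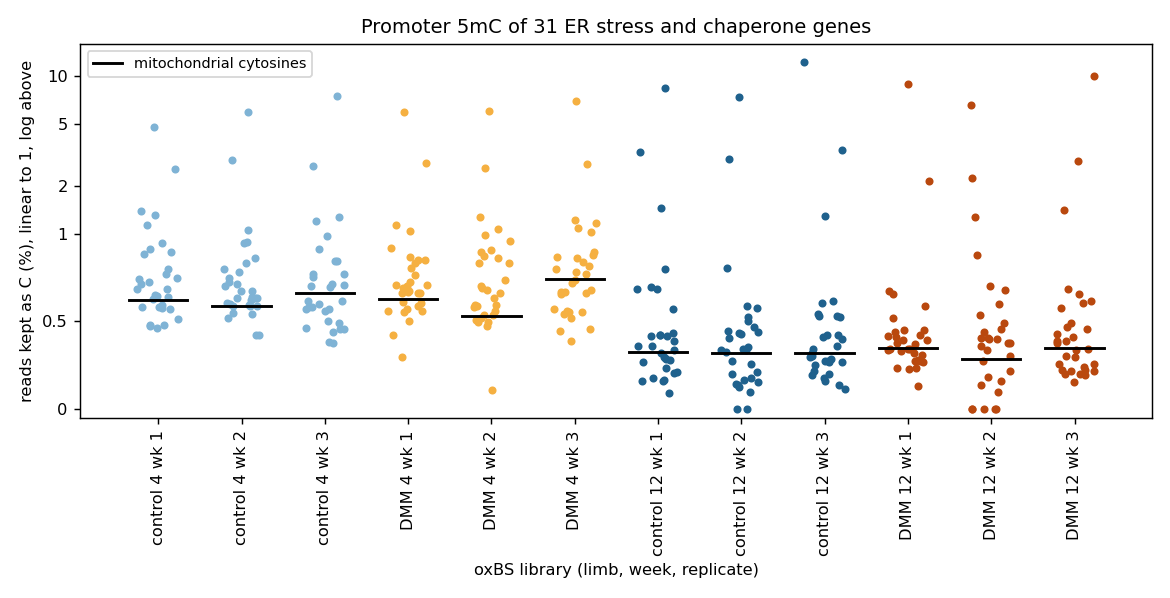
Share of reads kept as C in the promoters of 31 genes in each of the 12 oxBS libraries, with 1 point per promoter, coloured by limb and week, and a black bar for mitochondrial cytosines of the same library (0.28% to 0.74%). The axis is linear to 1% and logarithmic above. Most points lie around the bar, and the points above 2% are Derl3 and Pdia6.

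Derl3 and Pdia6 stood furthest above the floor. Derl3 (window chr10:75892398-75893897) was at 4.75%, 5.89% and 7.46% in the 4-week control libraries and at 5.88%, 6.05% and 6.96% in the DMM libraries, over 17 cytosines. At 12 weeks it was at 8.43%, 7.37% and 12.2% in control and at 8.92%, 6.54% and 10.03% in DMM, over 9 cytosines. The limbs overlapped at both weeks. Pdia6 (window chr12:17265589-17267088) was at 3.29%, 3.0% and 3.41% in 12-week control and at 2.16%, 2.26% and 2.89% in DMM, over 66 cytosines and a mean of 3771 reads per library, so that every DMM library was lower. Its difference of -0.80 percentage points had an adjusted p of 0.495 in edgeR, and at 4 weeks both limbs had a mean of 2.74%.

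No member promoter passed the test of 5mC between the limbs. edgeR, fitted on methylated and unmethylated reads, called 0 of 31 and 0 of 13534 promoters at 4 weeks (0%), with 1 of 31 and 485 promoters (3.58%) at an unadjusted p under 0.05. At 12 weeks it called 0 of 31 and 59 of 13371 promoters (0.441%), with 2 of 31 and 1329 promoters (9.94%) at an unadjusted p under 0.05. Pdia4 had the lowest p at 4 weeks, at 0.48% in control and 0.82% in DMM on average (adjusted p = 1 in edgeR). The median difference over the 31 promoters was -0.02 percentage points at 4 weeks and 0.00386 at 12 weeks. Syvn1, whose mRNA separated the limbs at 4 weeks, was at 0.73% in control and 0.51% in DMM there, near the floor. Chac1 was above the floor at both weeks, at 1.21% and 1.02% at 4 weeks and at 1.19% and 1.12% at 12 weeks.

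The wider pathways were read from lists of genes beyond the 34, and 0 of their genes passed edgeR's adjusted p of 0.05 at either week. Their 4-week values below come from the fit without the GC offset or the muscle score. The part of GC content in the directions of these lists was not tested. Other ER folding enzymes were mostly higher in DMM by their fitted values, 13 of 21 at 4 weeks and 16 of 21 at 12 weeks, with median log2 fold changes of 0.09 and 0.22. An unadjusted p under 0.05 was found for 3 of 21 at 4 weeks, all higher, and for 7 of 21 at 12 weeks, 5 higher and 2 lower, against 13.5% and 15.9% of all genes. All DMM libraries lay above all controls for 8 of 21 at 4 weeks and 5 of 21 at 12 weeks, against 10.8% and 9.91% of all genes. They lay below for 0 and 2 of 21, against 10.3% and 8.43%. Calu, encoding the lumenal calcium-binding protein calumenin, was at 467, 534 and 365 CPM in 4-week control and at 663, 783 and 1016 CPM in DMM, and it was the only gene of these lists that DESeq2 called in a comparison of limbs (log2 fold change 0.85 ± 0.27, adjusted p = 0.292 in edgeR and 0.0377 in DESeq2). Fkbp10, a collagen chaperone, was at 124, 155 and 81.9 CPM in 12-week control and at 174, 200 and 170 CPM in DMM (log2 fold change 0.60 ± 0.22, adjusted p = 0.276 in edgeR). Ero1a, the oxidase that recharges disulfide isomerases, went the other way at 12 weeks, at 91.9, 57.0 and 64.4 CPM in control and 47.2, 45.7 and 46.2 CPM in DMM (log2 fold change -0.61 ± 0.18, adjusted p = 0.236 in edgeR), and it was at -0.32 ± 0.24 at 4 weeks (adjusted p = 0.524 in edgeR).

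Genes of the translocon and of ER export leaned the same way, with 21 of 30 higher at 4 weeks and 23 of 30 at 12 weeks and medians of 0.26 and 0.18, against medians of -0.02 and 0.02 over all genes. An unadjusted p under 0.05 was found for 1 of 30 and 3 of 30, all higher, against 13.5% and 15.9% of all genes. All DMM libraries lay above all controls for 5 and 2 of 30, against 10.8% and 9.91% of all genes. They lay below for 0 and 1 of 30, against 10.3% and 8.43%. Sar1a, the GTPase that starts vesicle coats, had a log2 fold change of 0.52 ± 0.22 at 4 weeks (adjusted p = 0.361 in edgeR). Kdelr1, the receptor that returns chaperones to the ER, was at 35, 44.7 and 31.4 CPM in 12-week control and at 51.3, 62.2 and 45.5 CPM in DMM (log2 fold change 0.52 ± 0.17, adjusted p = 0.257 in edgeR). Sec24c at 4 weeks and Spcs3 at 12 weeks had the smallest p among those lower in DMM, at -0.39 ± 0.24 and -0.25 ± 0.13 on the log2 scale (adjusted p = 0.452 and 0.365 in edgeR). Fibroblast and synovium genes were higher in DMM at both weeks, as given above. At 4 weeks 8 of 10 osteoblast and osteocyte genes were also higher (median log2 fold change 0.44). Their sums were 8342 to 10307 CPM in DMM and 6132 to 6546 CPM in control. The part of these cell types in the values of ER export genes was not tested.

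Other ATF4 targets were mostly lower in DMM at 4 weeks, 18 of 25 with a median of -0.17, and 15 of 25 were lower at 12 weeks with a median of -0.05. An unadjusted p under 0.05 was found for 2 of 25 at 4 weeks, all lower, against 13.5% of all genes. At 12 weeks it was found for 2 higher and 1 lower of the 25, against 15.9%. All DMM libraries lay below all controls for 5 and 3 of 25, against 10.3% and 8.43% of all genes. They lay above for 0 of 25 at either week, against 10.8% and 9.91%. Gdf15, a stress-induced secreted factor, had a log2 fold change of -1.10 ± 0.46 at 4 weeks from levels under 2 CPM (adjusted p = 0.358 in edgeR), and Slc7a11, the cystine importer, was at 3.29, 2.65 and 2.28 CPM in 12-week control and at 1.39, 1.57 and 2.02 CPM in DMM (-0.72 ± 0.27, adjusted p = 0.277 in edgeR). Nupr1 had positive values at both weeks, 0.62 ± 0.33 and 0.79 ± 0.30 (adjusted p = 0.404 and 0.276 in edgeR). The other ERAD genes were split evenly, 8 of 16 and 9 of 16 higher, with medians of 0.01 and 0.03. Among those higher in DMM at 4 weeks the smallest p belonged to Derl2 (0.32 ± 0.18, adjusted p = 0.414 in edgeR). At 12 weeks the smallest p belonged to Erlec1 among the higher (0.33 ± 0.17) and to Edem3 among the lower (-0.24 ± 0.13), with adjusted p of 0.369 and 0.375 in edgeR.

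Other regulators of ER stress had medians of -0.06 and -0.09, with 6 and 5 of 14 higher. Eif2ak1, a kinase of the same translation factor as PERK, was at 169, 147 and 184 CPM in 12-week control and at 114, 109 and 136 CPM in DMM, with a log2 fold change of -0.48 ± 0.15 (adjusted p = 0.253 in edgeR). In the same comparison 9 of 9 erythroid genes were lower (median log2 fold change -0.38), and the part of erythroid cells in this value was not tested. Mbtps2, a protease that releases ATF6, was at 4.43, 5.03 and 4.54 CPM in 4-week control and at 6.14, 6.52 and 7.56 CPM in DMM (0.53 ± 0.22, adjusted p = 0.358 in edgeR). Wfs1, an ER calcium regulator, had log2 fold changes of -0.91 ± 0.35 at 4 weeks and 0.46 ± 0.21 at 12 weeks (adjusted p = 0.347 and 0.316 in edgeR). Its interaction of limb and week, read after these values were seen, was 1.36 ± 0.44 (log2, SE, adjusted p = 0.405 in edgeR).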

How the data were processed

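RNA-seq and oxidative bisulfite libraries of pooled cartilage were used, and 12 plain bisulfite libraries were not. The authors deposited read counts per RefSeq transcript, from STAR and featureCounts per the labels. The methylation files deposited by the authors, made with Bismark per the labels, hold the percent of reads kept as C per cytosine with the read counts behind it. Groups came from the labels. The 34 genes, the lists and the tests were chosen with earlier results of these data known. Counts were tested with edgeR 4.0.16 (quasi-likelihood, robust, TMM, filterByExpr, Benjamini-Hochberg over all transcripts, threshold 0.05) in R 4.3.3, with 6 libraries per fit of 1 week. DESeq2 1.42.0 was an alternative, with other filters, normalization, covariates and libraries left out. The GC offset (lowess, span 0.30), DESeq2 with a replicate block and the subsets of libraries in the likeness to Hspa5 were added after seeing the data. The scripts were tested on simulated data. All 34 genes are named with their levels, and fold changes are given where groups did not overlap, the unadjusted p was under 0.05 or DESeq2 made a call. In 5 pathway lists, genes called by either tool and the smallest p in each direction and week are named, except 1 that is not reported here. CPM used a prior count of 2 on the log2 scale. Depth is given as total counts, and the precision as 95% intervals over libraries.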

Additional observations from a re-analysis of the deposited data

How the results depend on the processing

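With 3 pools per group and between 49 and 78679 counts per gene and library, differences in single genes were resolved only when large, and the parts of depth and library number in this were not separated. The number of genes called between the limbs at 4 weeks, 5 in the edgeR fit, was 521 with DESeq2, 8 with no filter on low counts, 0 with at least 10 counts in every library, 0 with 1 transcript per gene, 17 with all 12 libraries in 1 fit, 0 with the skeletal muscle score as a covariate, 0 with the GC content offset and 0 to 87 with a library left out. At 12 weeks it was 1, and 33 at an adjusted p under 0.10, 584 with DESeq2, 27 with no filter, 0 with the muscle score and 0 to 605 with a library left out. The interaction gave 0 calls in edgeR, 13 in DESeq2 and 0 to 2 with a library left out. Between the weeks, control cartilage gave 0 genes, and 604 (3 of the 34) at an adjusted p under 0.10, 1905 (4 of the 34) with DESeq2, 7 with the GC content offset and 0 to 2829 (0 to 3 of the 34) with a library left out. DMM cartilage gave 3578 genes (5 of the 34), 1887 (2 of the 34) with the GC content offset and 1435 to 5334 (2 to 8 of the 34) with a library left out. The median log2 fold change of the 34 genes between the limbs was 0.01 at 4 weeks, 0.12 with the muscle score and -0.07 to 0.07 with a library left out, and 0.08 at 12 weeks, with -0.06 to 0.18. With a library left out it was -0.11 to 0.18 for the interaction, and between weeks -0.08 to 0.13 in control and -0.09 to 0.05 in DMM. The sign of the log2 fold change at 4 weeks turned for 11 of the 34 genes with the GC content offset and for 14 with the muscle score, and with that offset for 11 in the interaction and 12 between weeks in DMM. These include Trib3 between weeks in DMM with the GC content offset (-0.11) and Chac1 at 4 weeks with the muscle score (0.33, adjusted p = 0.929 in edgeR), and the cause was not tested. Promoters called for 5mC were 0 at 4 weeks, with 0 to 62 when a library was left out, and 59 at 12 weeks, with 4 in the window of 250 bp before to 50 bp after the start and 2 to 55 when a library was left out. The median 5mC difference of the member promoters was -0.0943 and 0.0752 percentage points in that window at 4 and 12 weeks, and -0.0143 to 0.0434 and -0.00109 to 0.0674 with a library left out.

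Replicate numbers were shared by the limbs. Deviations of same-numbered libraries correlated at 0.36, -0.33 and 0.08 at 4 weeks and at -0.54, 0.27 and -0.26 at 12 weeks. Libraries of unlike numbers ran from -0.42 to 0.57, so these values could not settle whether the numbers pair the samples. The main fits did not pair them, although both limbs came from the same mice. With the replicate number as a block, edgeR called 264 genes at 4 weeks and 497 at 12 weeks and 0 of the 34 at either week, and promoters called for 5mC were 199 and 12. DESeq2 with the replicate block called 825, 1836 and, for the interaction, 602 genes, among them Creb3l1 at 12 weeks (1 of the 34) and Creb3l2 in the interaction (1 of the 34).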
